A study of Mus musculus with 6 samples.

Results

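The comparison described here was between the 2 replicates of pressure-overloaded mouse hearts, and it asked how far ventricles that share a surgery label differ from one another. Its members were the 4 arrays labelled TAC, of 6 arrays in the series, chosen by the replicate number in their labels. One side held Tg TAC rep1 and WT TAC rep1, the other Tg TAC rep2 and WT TAC rep2, so each side had 1 array per genotype label and genotype was a term of the fit. Male mice of the C57/BL6 background had surgery at 6 to 8 weeks of age, and left ventricles were taken 3 weeks later by the labels, while the study's text gives a longer interval for its Tg mice. Transverse aortic constriction (TAC) narrows the aortic arch around a needle and loads the left ventricle with pressure. Tg mice carry a Flag-tagged cDNA of *Kdm3a*, a histone H3 lysine 9 demethylase, behind the αMHC promoter, which drives it in heart muscle cells, and the primary data of the study come from a single transgenic line. WT mice carry no transgene. The series also held 1 Tg Sham and 1 WT Sham heart, which have no replicate number and are given as levels beside the results. An animal number of its own in every label makes the arrays separate mice. With series and genotype as terms, p-values rest on how unlike the rep1 minus rep2 differences within Tg and within WT are. They also rest on a spread shared across genes, and they do not measure the spread between mice of a series. The rep1 mice are numbered 446 (Tg) and 445 (WT), the rep2 mice 18 (Tg) and 17 (WT), and the sham mice 454 (Tg Sham) and 444 (WT Sham). The replicate series thus come from separate ranges of animal numbers, and both shams lie in the range of rep1. A level in rep1 hearts is set against shams of its own number range and a level in rep2 hearts against shams of another, so for rep2 surgery and number range cannot be told apart. Nothing in the sources used here says what mice of one range share, such as a litter, a surgery day or a hybridisation.

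Pressure overload is known to bring back genes of the fetal heart, among them the natriuretic peptides and skeletal actin, and to set fibroblasts to work on collagen and other matrix proteins. The overloaded heart is known to burn less fat and to carry less transcript of the enzymes of fatty acid oxidation. Dividing cells in an adult ventricle are mostly fibroblasts, endothelial cells and macrophages, since heart muscle cells rarely divide. In whole tissue, fewer cells of a type and less RNA per cell cannot be told apart.

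The levels below are log2 intensities after background correction and quantile normalization over the 6 arrays, and differences are rep1 minus rep2. A probe counts as detected where its detection p is below 0.01, and detected probes numbered 16133 (Tg) and 16492 (WT) in rep1 hearts, against 15753 (Tg) and 15693 (WT) in rep2 hearts. Of 4 *Kdm3a* probes, 1 read far above the others on some arrays, and it went against 2 labels. Its unnormalized intensity was 34642 (Tg) and 30614 (WT) in rep1 hearts, against 33540 (Tg) and 229 (WT) in rep2 hearts, with 247 in Tg Sham and 341 in WT Sham. On this probe the library labelled WT TAC rep1 thus read like the Tg TAC libraries, and the library labelled Tg Sham like WT TAC rep2 and WT Sham. The probe does not read surgery. Whether these 2 libraries were exchanged, which would put a sham heart in rep1, was not tested. Both rep1 libraries read high and only 1 of the rep2 libraries did, so every series difference also holds this contrast. High or low for *Kdm3a* refers here and below to this probe only. The other probes detected on all 6 arrays differed by 0.21 and −0.19 within Tg and by 0.31 and 0.09 within WT. The difference within the Tg label compares 2 libraries that are both high for *Kdm3a* and leaves WT TAC rep1 out, and the median within Tg is given beside the main lists. The difference within the WT label sets a library that is high for *Kdm3a* against one that is low, so values within Tg and within WT are those of 2 labels, and their likeness is not shown to be that of 2 genotypes. The labels give left ventricle, while a passage of the study speaks of isolated heart muscle cells. On these arrays 9 of 10 heart muscle markers, 12 of 14 endothelial, 11 of 12 fibroblast and 15 of 19 macrophage markers were measured, and no fat cell marker was.

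Promoters are shown for genes that set the scale of the comparison, taken from RefSeq on GRCm38.p6. Under a rule that asked for 1 table entry, detection on all 4 TAC arrays and a call, these were the leading pair of the fetal genes, the leading collagen and the leading protease inhibitor. *Acta1* codes for skeletal actin, *Nppa* for atrial natriuretic peptide, *Col8a1* for a short-chain collagen and *Timp1* for an inhibitor of matrix metalloproteinases. Each run is 300 bases around the annotated start, 5′ to 3′ on the gene's strand, with motif matches in capitals.
Acta1, chr8:123894726-123895025, minus strand: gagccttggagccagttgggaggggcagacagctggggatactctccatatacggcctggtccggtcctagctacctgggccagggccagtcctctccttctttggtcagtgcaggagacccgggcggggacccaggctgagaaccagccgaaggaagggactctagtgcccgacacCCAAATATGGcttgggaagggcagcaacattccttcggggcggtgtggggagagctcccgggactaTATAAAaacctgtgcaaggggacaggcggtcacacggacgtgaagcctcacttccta
Nppa, chr4:148000472-148000771, plus strand: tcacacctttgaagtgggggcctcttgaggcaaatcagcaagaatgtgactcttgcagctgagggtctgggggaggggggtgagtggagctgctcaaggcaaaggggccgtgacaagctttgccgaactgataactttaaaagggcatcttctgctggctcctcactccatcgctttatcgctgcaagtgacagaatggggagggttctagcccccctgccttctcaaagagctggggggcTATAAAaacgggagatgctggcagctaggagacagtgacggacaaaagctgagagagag
Col8a1, chr16:57754688-57754987, minus strand: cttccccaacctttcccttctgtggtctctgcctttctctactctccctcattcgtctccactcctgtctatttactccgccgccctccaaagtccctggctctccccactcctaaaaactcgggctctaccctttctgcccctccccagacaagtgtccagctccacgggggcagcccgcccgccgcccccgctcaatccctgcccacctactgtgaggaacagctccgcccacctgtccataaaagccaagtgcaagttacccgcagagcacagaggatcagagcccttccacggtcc
Timp1, chrX:20869916-20870215, plus strand: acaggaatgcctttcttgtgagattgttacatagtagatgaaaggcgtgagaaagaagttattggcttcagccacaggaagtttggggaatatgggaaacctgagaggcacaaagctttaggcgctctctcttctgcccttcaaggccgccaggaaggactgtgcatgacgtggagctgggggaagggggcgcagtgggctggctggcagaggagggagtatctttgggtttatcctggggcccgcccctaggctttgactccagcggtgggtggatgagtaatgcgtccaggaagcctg

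Both strands were searched for 5 motifs. The AP-1 site, to which FOS and JUN proteins bind, was written TGANTCA. The cyclic AMP response element, or CRE, was written as TGACGTCA. The CArG box of serum response factor was searched by its name. The site for GATA factors, such as the heart factor GATA4, was written as AGATAA. The TATA box of the core promoter was searched as TATAAA. The capitals in *Acta1* are a CArG box at bases 178 to 187 and a TATA box at bases 244 to 249, counted from the first base shown. The capitals in *Nppa* are a TATA box at bases 242 to 247. The windows of *Col8a1* and *Timp1* held none of the 5 motifs. Of 32851 promoters in the table, 1.63% held the CArG box, 13.6% the TATA box, 7.81% the AP-1 motif, 1.79% the CRE and 11.2% the GATA motif. A match is a description of these letters only.

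The replicate series differed in 669 of 9577 genes tested (6.99% called at an adjusted p below 0.05 by limma), of which 388 (4.05%) were higher and 281 (2.93%) lower in rep1 hearts. Differences of more than 2-fold numbered 241 higher (2.52%) and 109 lower (1.14%), 3.65% in all. Among measured members, calls of higher and lower numbered 45 and 1 of 85 for the matrix lists, 20 and 0 of 36 for the cell cycle lists, 23 and 4 of 80 for the stress lists, and 2 and 19 of 143 for the metabolic lists. The medians of these list groups were 0.81, 1.01, 0.27 and −0.22, beside −0.03 over all genes. Of the measured members, 7 of the matrix lists, 9 of the cell cycle lists and 2 of the stress lists were detected on both rep1 arrays and on no rep2 array, and so passed the filter only through the series where they are high. Among members detected on all 4 TAC arrays, calls of higher and lower numbered 39 and 1 of 77 for the matrix lists, 11 and 0 of 21 for the cell cycle lists, 20 and 3 of 74 for the stress lists, and 2 and 19 of 141 for the metabolic lists, beside 3.78% higher and 3.15% lower over the 8471 genes so detected.

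The calls rest on 1 residual and 5.58 prior degrees of freedom and on how spread is modelled, since 36 genes were called without the genotype term and 42 without the intensity trend of the prior. With median scaling in place of quantile normalization the split was 808 higher and 140 lower, on a median of all genes of 0.17. Without the genotype term the calls fell to 2 of 16 collagens, 4 of 19 mitotic genes, 1 of 11 fetal genes and none of 25 fatty acid genes, and without the trend to 3, 6, 1 and none of the same lists. Leaving out the library labelled WT TAC rep1, in a fit without genotype, left 79 calls, of which 75 were among the 669. That fit assumes that the lone rep1 array varies like the rep2 pair, whose spread holds the genotype difference too. All its arrays are also in the main fit, so an overlap of calls is built in.

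The differences within the 2 genotype labels were set against each other. Over all genes the difference within Tg and the difference within WT, which share no array, had a Pearson r of 0.54 and a Spearman rho of 0.50, across genes and not across replicates, and 67.5% of genes had the same sign. More than 2-fold differences within Tg numbered 305 higher and 169 lower, and within WT 324 higher and 175 lower. Both labels passed 2-fold in the same direction for 138 genes higher and 55 lower, and in opposite directions for 9. Of the sum of squares over the 4 TAC arrays, 50.7% lay between the replicate series, 34.2% between the genotype labels and 15.1% in neither. These parts have equal degrees of freedom, so spread without structure would divide about equally among them, and the shares carry no test.

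**Figure D1:**
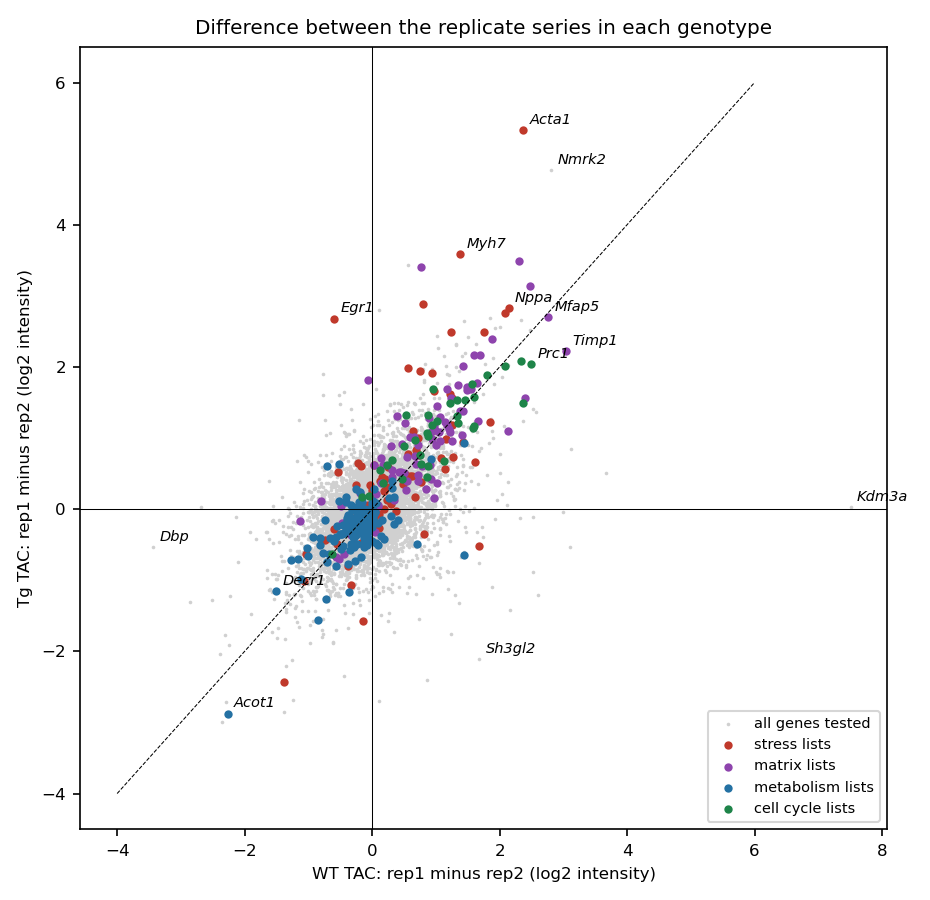
Each point is a gene, with the rep1 minus rep2 difference in log2 intensity within WT TAC on the horizontal axis and within Tg TAC on the vertical axis; the dashed line marks equal differences and colours mark members of the stress, matrix, metabolic and cell cycle lists. Matrix and cell cycle members lie mostly to the upper right, *Acta1* and *Myh7* lie above the line, and *Kdm3a*, by its brightest probe, lies far to the right at 0.03 in Tg and 7.51 in WT.

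By pairs of arrays, same-series correlations over genes were 0.980 (rep1, Tg with WT) and 0.977 (rep2, Tg with WT), against 0.972 (Tg, rep1 with rep2) and 0.971 (WT, rep1 with rep2) for pairs of the same genotype label. The library labelled WT TAC rep2 correlated at 0.990 with the one labelled Tg Sham and the library labelled WT TAC rep1 at 0.984 with WT Sham. These pairs share a TAC or a sham library with others in the list and carry no test.

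The fetal and hypertrophy genes were the stress genes that differed most. Of 14 listed, 11 were measured, 10 were called higher in rep1 hearts and none lower, with a median difference of 1.41, which was 1.91 within Tg and 1.24 within WT. All 11 had rep1 arrays above rep2 arrays without overlap, as had 20.6% of all genes tested. *Nppa* read 15.28 (Tg) and 15.22 (WT) in rep1 hearts, against 12.46 (Tg) and 13.08 (WT) in rep2 hearts. Sham hearts stood between, at 14.68 (Tg Sham) and 14.16 (WT Sham), so TAC rep2 hearts were the lowest of all 6 for this gene. The difference was 2.48 ± 0.16 (SE), a 5.6-fold higher level in rep1 hearts (adjusted p = 0.00268, limma). *Nppb*, the brain natriuretic peptide gene, read 14.72 (Tg) and 14.08 (WT) in rep1 hearts, against 12.23 (Tg) and 12.83 (WT) in rep2 hearts. Its difference of 1.87 ± 0.26 was larger within Tg (2.49) than within WT (1.24), and both sham hearts, at 13.87 (Tg Sham) and 13.76 (WT Sham), exceeded both rep2 hearts.

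Sarcomere genes of the fetal heart were less alike within the 2 genotype labels. *Acta1* read 13.66 (Tg) and 14.10 (WT) in rep1 hearts, against 8.32 (Tg) and 11.73 (WT) in rep2 hearts. The Tg TAC rep2 heart stood apart as the low array, and both shams, at 14.53 (Tg Sham) and 13.88 (WT Sham), lay in the range of the rep1 hearts or above it. The series difference was 3.85 ± 0.59 (adjusted p = 0.018), 5.34 within Tg and 2.37 within WT. *Myh7*, the slow myosin heavy chain of the fetal ventricle, read 10.60 (Tg) and 8.35 (WT) in rep1 hearts, against 7.01 (Tg) and 6.97 (WT) in rep2 hearts. The Tg TAC rep1 heart was highest here, the 2 rep2 hearts were nearly equal, and the difference was 2.48 ± 0.46 (adjusted p = 0.0288). Both shams, at 8.97 (Tg Sham) and 8.44 (WT Sham), lay above the WT TAC rep1 heart and below the Tg TAC rep1 heart. *Myh6*, the adult fast myosin, read 14.63 (Tg) and 14.86 (WT) in rep1 hearts, against 14.93 (Tg) and 15.10 (WT) in rep2 hearts, a difference of −0.28 ± 0.09 that did not pass the test (adjusted p = 0.143).

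Genes known to respond to stretch or calcineurin were called as well. *Rcan1*, a calcineurin target, differed by 1.41 ± 0.12, with 1.57 within Tg and 1.25 within WT. Its second detected probe differed far more, by 4.41 within Tg and 3.55 within WT. *Fhl1*, a sarcomere protein tied to stretch, read 13.14 (Tg) and 12.57 (WT) in rep1 hearts, against 11.96 (Tg) and 11.32 (WT) in rep2 hearts, with shams at 11.69 (Tg Sham) and 11.53 (WT Sham). It differed by 1.18 within Tg and 1.26 within WT, and both rep1 hearts were above both shams. *Ankrd23* differed by 1.42 ± 0.22 and *Ankrd1*, a stretch-responsive partner of titin, by 0.86 ± 0.13. *Xirp2* and *Uchl1* were called too, at 1.35 and 0.86. Of the 11 fetal and hypertrophy genes, 9 (81.8%) had both rep2 hearts below both shams. This held for 14.9% of all genes tested and for 58.8% of those called higher, where the gap between the series partly sets it.

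Of 16 genes of adult calcium handling and ion channels, 14 were measured, 4 were called lower in rep1 hearts and none higher, with a median of −0.45, and −0.49 within Tg. *Kcnv2*, a silent potassium channel subunit, read 4.67 (Tg) and 6.13 (WT) in rep1 hearts, against 7.10 (Tg) and 7.50 (WT) in rep2 hearts, a difference of −1.90 ± 0.29, although only 1 of the rep1 arrays detected it. *Kcnd2*, which carries the fast transient outward current, read 8.46 (Tg) and 8.28 (WT) in rep1 hearts, against 9.47 (Tg) and 9.35 (WT) in rep2 hearts. Both shams, at 8.94 (Tg Sham) and 8.67 (WT Sham), lay between the series, and the 2.05-fold lower level in rep1 hearts had an adjusted p of 0.0131. *Hrc*, a calcium-binding protein of the sarcoplasmic reticulum, was lower by 0.83 ± 0.12 and the calcium release channel *Ryr2* was lower by 0.52 on the log2 scale.

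Immediate early genes, which respond within minutes to stretch or growth factors, were called higher in rep1 hearts for 8 of 18 measured members (24 listed) and lower for none, with a median of 0.97, and 0.75 within Tg. Of 14 detected on all 4 TAC arrays 5 were called. Without a filter on dim probes the median of all 24 was 0.51 with 6 called. *Egr2* read 8.06 (Tg) and 7.55 (WT) in rep1 hearts, against 5.30 (Tg) and 5.46 (WT) in rep2 hearts, with only 1 rep2 array above the detection limit, and differed by 2.42 ± 0.23. *Egr3*, its paralogue, read 8.20 (Tg) and 7.59 (WT) in rep1 hearts, against 5.71 (Tg) and 5.84 (WT) in rep2 hearts and differed by 2.12 ± 0.24. Both labels differed in the same direction for these factors, as for all 669 called genes, so the shared direction adds nothing to the call. The 2 shams lay below the rep1 hearts. *Fos* read 9.19 (Tg) and 9.37 (WT) in rep1 hearts, against 6.30 (Tg) and 8.57 (WT) in rep2 hearts, and its difference of 1.84 ± 0.43 did not pass (adjusted p = 0.0564), with 2.88 within Tg and 0.80 within WT. *Egr1* went opposite ways, 2.68 within Tg and −0.59 within WT, as did *Jun*, 0.52 within Tg and −0.54 within WT. *Atf3*, a factor of many stress responses, was called at 1.31 ± 0.24, with the Tg TAC rep2 array below detection, yet the highest of all 6 arrays was WT Sham at 9.04. *Jund* (1.07), *Klf4* (1.14), *Gadd45g* (0.90) and *Klf2* (0.67) made up further calls, and *Fosb*, detected on no rep2 array, was at least 1.74-fold higher in rep1 hearts.

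Fewer genes were called in the other stress lists. Among 11 measured heat shock genes, 2 were called higher and none lower, *Hspb1*, a small chaperone of the sarcomere, and *Hsp90aa1*, and the median was 0.22. *Hspb1* read 11.87 (Tg) and 11.91 (WT) in rep1 hearts, against 10.75 (Tg) and 10.94 (WT) in rep2 hearts, with both shams between at 11.45 (Tg Sham) and 11.39 (WT Sham), and differed by 1.05 ± 0.11. The inducible *Hspa1a* differed by 0.85 ± 0.23 and was not called. Of 13 measured genes of the integrated stress response, which ATF4 directs, 3 were called higher and 5 with median scaling: *Mthfd2* of mitochondrial folate metabolism at 1.54 ± 0.21, *Nupr1* at 1.42 ± 0.16 and *Atf4* itself at 0.55 ± 0.12. Median scaling also raised the calls of higher over all genes, from 388 to 808. The list median was 0.32, and 0.10 without a filter on dim probes, with 2 called. *Nupr1*, a stress-induced nuclear protein, read 9.92 (Tg) and 9.43 (WT) in rep1 hearts, against 8.30 (Tg) and 8.21 (WT) in rep2 hearts, with shams at 8.27 (Tg Sham) and 8.54 (WT Sham) close to the rep2 hearts. None of 13 measured endoplasmic reticulum folding genes was called by limma, 2 had an unadjusted p below 0.05, and their median was 0.02. *Dnajb9* gave −0.58 ± 0.13 (adjusted p = 0.050013, limma) and *Calr* 0.58 ± 0.16. In this list 1 gene was called higher with median scaling, and 1 was called lower with detection on all 4 TAC arrays.

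**Figure D2:**
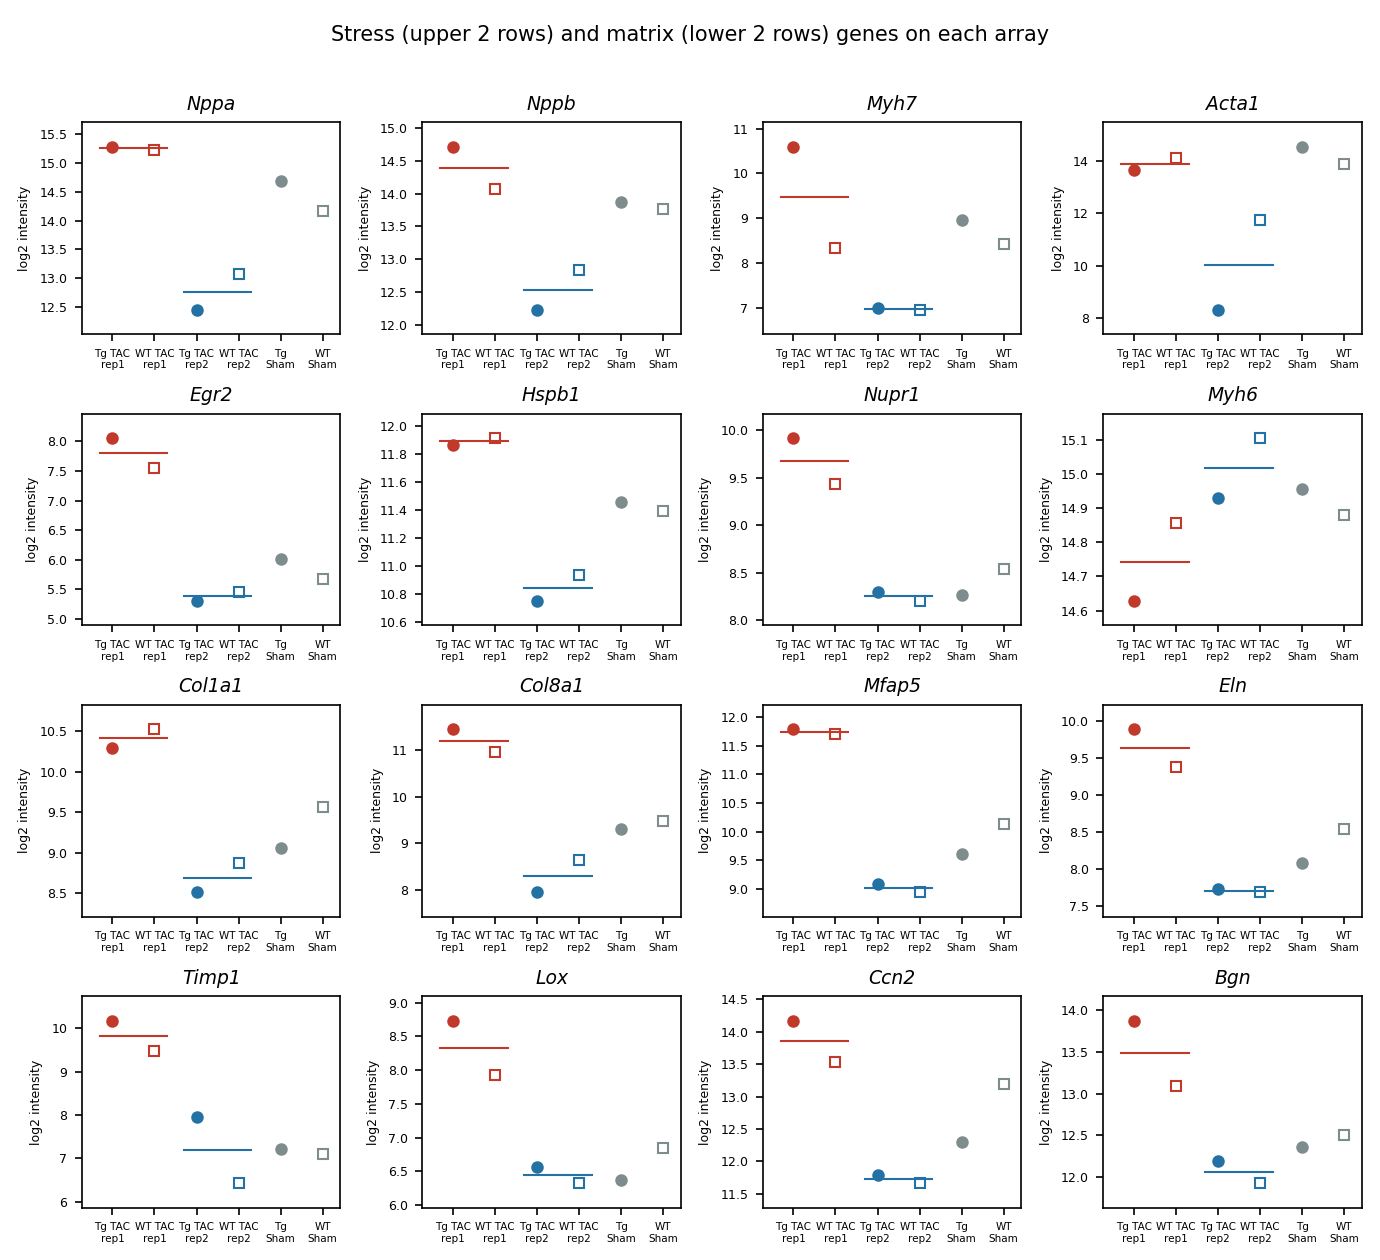
Log2 intensity of 16 genes on each of the 6 arrays (filled circles Tg, open squares WT; red TAC rep1, blue TAC rep2, grey Sham; bars are the means of the 2 arrays of a series). In most stress and matrix panels both red points lie above the grey points and both blue points lie level with or below them. *Myh6* runs the other way, *Acta1* shams lie with the rep1 hearts, and both *Myh7* shams lie between the WT and Tg rep1 hearts.

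For the collagens, 15 of 16 measured chains (18 listed) were called higher in rep1 hearts, the median was 1.23 in the fit, 1.23 within Tg and 1.23 within WT, and all 16 were without overlap. *Col1a1*, a chain of the main fibrillar collagen of scar, read 10.29 (Tg) and 10.52 (WT) in rep1 hearts, against 8.51 (Tg) and 8.87 (WT) in rep2 hearts. Both rep1 hearts were above both shams, at 9.06 (Tg Sham) and 9.56 (WT Sham), and both rep2 hearts below them, and the level in rep1 hearts was 3.28-fold higher (difference 1.72 ± 0.13, adjusted p = 0.00289). *Col3a1*, its partner in reticular fibres, read 9.55 (Tg) and 9.59 (WT) in rep1 hearts, against 8.31 (Tg) and 7.94 (WT) in rep2 hearts, a difference of 1.45 ± 0.16. *Col1a2* differed by 1.17 ± 0.17, with Tg hearts above WT hearts in both series. *Col8a1* had the highest difference of the collagens at 2.89 ± 0.26, 7.42-fold, and read 11.44 (Tg) and 10.95 (WT) in rep1 hearts, against 7.96 (Tg) and 8.65 (WT) in rep2 hearts. *Col15a1*, of the basement membrane zone, differed by 1.60 ± 0.12. *Col5a2* and *Col8a2* were detected on no rep2 array and were at least 2.66-fold and at least 1.72-fold higher in rep1 hearts. The basement membrane chains *Col4a1* and *Col4a2* were called at 1.15 and 1.07. Of the 16 chains, 14 (87.5%) had both rep1 hearts above both shams, beside 22.1% of all genes and 73.2% of the genes called higher. Both rep2 hearts were below both shams for 11 (68.8%), beside 14.9% of all genes and 58.8% of those called higher. The gap between the series partly sets these positions.

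The enzymes that crosslink and process collagen had 5 of 14 measured members called higher, with a median of 0.48 (0.54 within Tg) and none lower. *Lox*, lysyl oxidase, read 8.73 (Tg) and 7.92 (WT) in rep1 hearts, against 6.57 (Tg) and 6.32 (WT) in rep2 hearts, a difference of 1.89 ± 0.20. Rep2 hearts were level with the shams, at 6.37 (Tg Sham) and 6.85 (WT Sham), and only the rep1 hearts stood clear of them. *Loxl1* (1.08 ± 0.13), the procollagen C-proteinase enhancer *Pcolce* (1.11 ± 0.14), transglutaminase *Tgm2* (0.76 ± 0.12) and the collagen chaperone *Serpinh1* (0.47) completed the calls. The prolyl hydroxylase subunit *P4ha1* gave 0.56 ± 0.17 and was not called.

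Matricellular and elastic fibre genes had 9 of 16 measured members (25 listed) called higher, a median of 1.46 (0.77 over the 22 on the array without a filter, with 9 called), 1.63 within Tg, and the lowest adjusted p of the comparison. *Mfap5*, a protein of elastic microfibrils, read 11.79 (Tg) and 11.71 (WT) in rep1 hearts, against 9.09 (Tg) and 8.94 (WT) in rep2 hearts. The 2 hearts of each series lay close together while the series were 6.65-fold apart, 2.73 ± 0.12 (adjusted p = 0.00129), with 2.70 within Tg and 2.77 within WT. *Mfap4* read 10.60 (Tg) and 10.21 (WT) in rep1 hearts, against 7.46 (Tg) and 7.74 (WT) in rep2 hearts and differed by 2.81 ± 0.19. *Eln*, elastin, differed by 1.93 ± 0.17, fibronectin *Fn1* by 1.62 ± 0.17 and *Fbln2* by 1.55 ± 0.14. *Ccn2*, also known as connective tissue growth factor, read 14.17 (Tg) and 13.53 (WT) in rep1 hearts, against 11.78 (Tg) and 11.66 (WT) in rep2 hearts, and the WT Sham heart at 13.20 was near the rep1 hearts. *Sparc*, a collagen-binding protein, differed by 1.38 ± 0.10, 1.38 within Tg and 1.38 within WT. *Tnc*, tenascin C, was detected on no rep2 array and was at least 2.48-fold higher in rep1 hearts. *Comp*, a cartilage and scar glycoprotein, read 8.69 in Tg TAC rep1 but 5.63 in WT TAC rep1, was detected on no rep2 array and was not called (adjusted p = 0.0811). *Thbs2* gave −0.62 ± 0.16 and *Fbln1* −0.34 ± 0.12, neither called, and *Postn* was not measured.

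Proteoglycans had 4 of 8 measured members called higher and none lower, with a median of 0.57 (0.82 within Tg), *Bgn* (1.43 ± 0.14), *Lum* (1.00 ± 0.12), *Prelp* (0.81 ± 0.14) and *Vcan*, which no rep2 array detected and which was at least 1.77-fold higher in rep1 hearts. Biglycan *Bgn* read 13.88 (Tg) and 13.10 (WT) in rep1 hearts, against 12.19 (Tg) and 11.92 (WT) in rep2 hearts. *Ogn* went 0.12 within Tg and −0.80 within WT and was not called.

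Proteases and their inhibitors had 8 of 18 measured members called higher and none lower, with a median of 0.68 (0.46 within Tg). *Timp1* read 10.17 (Tg) and 9.46 (WT) in rep1 hearts, against 7.94 (Tg) and 6.42 (WT) in rep2 hearts, with shams at 7.22 (Tg Sham) and 7.10 (WT Sham). The WT TAC rep2 heart was the lowest of the 6 and the Tg TAC rep2 heart was above both shams, so the WT difference (3.04) exceeded the Tg difference (2.23). Over both, *Timp1* was 6.2-fold higher in rep1 hearts (2.63 ± 0.21, adjusted p = 0.004). *Mmp14*, the membrane protease that activates *Mmp2*, differed by 0.95 ± 0.13, *Mmp2* by 0.84, *Mmp23* by 1.18 ± 0.16 and plasminogen activator *Plat* by 1.05 ± 0.14. *Adamts4*, an aggrecanase seen on no rep2 array, was at least 1.95-fold higher in rep1 hearts. *Adam9* read 9.06 (Tg) and 8.53 (WT) in rep1 hearts, against 8.69 (Tg) and 8.39 (WT) in rep2 hearts and did not pass (0.25 ± 0.15).

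For TGF-beta signalling, 4 of 13 measured members were called higher and 1 lower, with a median of 0.60 (0.72 within Tg). With median scaling 8 were called higher and none lower, while calls of higher over all genes also rose, from 388 to 808. The ligand *Tgfb3* differed by 0.81 ± 0.16, while *Tgfb1* gave 0.48 ± 0.15 and *Tgfb2* 0.87 ± 0.22, which were not called. The receptor *Tgfbr2* was higher by 0.71 ± 0.11 and read 11.20 (Tg) and 11.11 (WT) in rep1 hearts, against 10.46 (Tg) and 10.44 (WT) in rep2 hearts. The co-receptor *Tgfbr3* was lower, at −0.61 ± 0.13, while a second detected probe of this gene gave 0.26. *Inhba*, the activin subunit, was at least 1.89-fold higher in rep1 hearts and undetected in rep2, and the latent binding protein *Ltbp3* differed by 0.65 ± 0.14.

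Median differences of fibroblast, macrophage and endothelial markers were positive, and those of heart muscle and erythroid markers were negative. Of 11 measured fibroblast markers 5 were called higher, with a median of 0.74 (0.81 within Tg), and the log2 of their summed intensity was 13.01 (Tg) and 13.07 (WT) in rep1 hearts, against 12.01 (Tg) and 12.12 (WT) in rep2 hearts. *Meox1*, a factor of activated fibroblasts, read 10.60 (Tg) and 10.44 (WT) in rep1 hearts, against 8.05 (Tg) and 8.43 (WT) in rep2 hearts, a difference of 2.28 ± 0.17. Of 15 measured macrophage markers 5 were called higher, with a median of 0.52 (0.53 within Tg) and sums of 14.23 (Tg) and 14.30 (WT) in rep1 hearts, against 13.83 (Tg) and 13.80 (WT) in rep2 hearts. The 12 endothelial markers had 2 called, a median of 0.32 (0.34 within Tg) and sums of 14.55 (Tg) and 14.69 (WT) in rep1 hearts, against 14.18 (Tg) and 14.36 (WT) in rep2 hearts. Heart muscle markers had none of 9 called and 2 at an unadjusted p below 0.05, a median of −0.06 (−0.09 within Tg) and sums of 17.55 (Tg) and 17.39 (WT) in rep1 hearts, against 17.61 (Tg) and 17.48 (WT) in rep2 hearts. The 10 measured smooth muscle and pericyte markers had none called higher and 1 called lower, with a median of 0.15. The 4 measured erythroid markers had none called and a median of −0.45. Of 5 atrial muscle markers 2 were measured and none called, with medians of −0.60 within Tg and 1.20 within WT. Their sums were 9.28 (Tg) and 8.59 (WT) in rep1 hearts, against 9.41 (Tg) and 7.08 (WT) in rep2 hearts. The part of atrial tissue in the *Nppa* result was not tested. The part of these cell types in the matrix and cell cycle results was not tested.

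**Figure D3:**
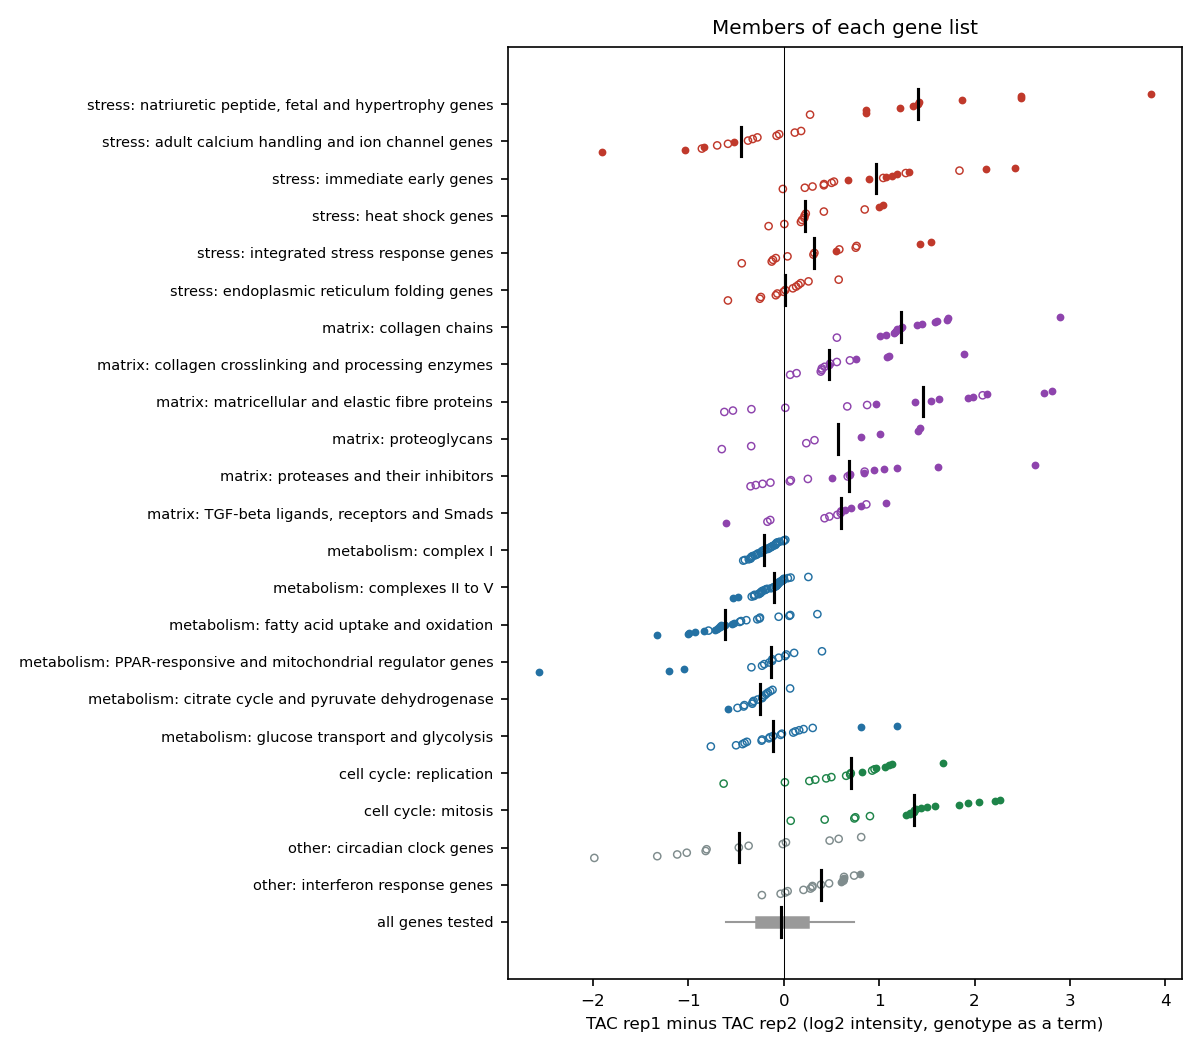
Each point is a measured member of a gene list at its TAC rep1 minus TAC rep2 difference in log2 intensity (filled where called, open where not), with a black bar at the list median; the grey box and line give the middle 50% and 90% of all genes tested. Collagens, mitotic genes and fetal genes lie almost wholly right of zero, fatty acid oxidation mostly left, and respiratory chain members crowd near zero.

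Fatty acid uptake and oxidation was the metabolic list with most calls. Of 25 measured genes 13 were called lower in rep1 hearts and none higher, the median was −0.62, which was −0.44 within Tg and −0.68 within WT, and 21 of 25 were without overlap, as were 23.9% of all genes in that direction. *Decr1*, which reduces double bonds of unsaturated acyl chains, read 9.91 (Tg) and 8.62 (WT) in rep1 hearts, against 11.06 (Tg) and 10.13 (WT) in rep2 hearts. Tg hearts were above WT hearts in both series, and rep1 was lower in each, so that rep1 hearts held a 2.51-fold lower level (−1.33 ± 0.14, adjusted p = 0.00783). *Acaa2*, the last thiolase of the mitochondrial spiral, read 11.04 (Tg) and 10.74 (WT) in rep1 hearts, against 11.76 (Tg) and 12.02 (WT) in rep2 hearts, with shams at 12.17 (Tg Sham) and 11.67 (WT Sham). Here sham and rep2 hearts overlapped and the rep1 hearts lay below them all. *Mlycd*, which clears malonyl-CoA, differed by −1.27 within Tg and −0.72 within WT, and in the fit the fatty acid transporter *Slc27a1* differed by −0.93 ± 0.16 and short-chain dehydrogenase *Acads* by −0.83 ± 0.13. The carnitine shuttle was represented in the calls by *Cpt1b* (−0.54), *Cpt2* (−0.66) and *Slc25a20* (−0.66). In 17 of the 25 genes (68%) both rep1 hearts were below both shams, beside 18% of all genes and 79.7% of the genes called lower. The gap between the series partly sets this position. With median scaling 10 were called lower and 1 higher and the median was −0.43, on an all-gene median of 0.17.

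Among 14 measured PPAR-responsive genes and mitochondrial regulators, 3 were called lower. *Acot1*, an acyl-CoA thioesterase induced by PPAR alpha, read 6.72 (Tg) and 7.93 (WT) in rep1 hearts, against 9.59 (Tg) and 10.19 (WT) in rep2 hearts, with shams at 9.49 (Tg Sham) and 9.83 (WT Sham) beside the rep2 hearts. It was 5.93-fold lower in rep1 hearts (−2.57 ± 0.19, adjusted p = 0.00268), with −2.88 within Tg and −2.26 within WT. Lipid droplet protein *Plin5* differed by −1.05 ± 0.12 and uncoupling protein *Ucp3* by −1.20 ± 0.23. The regulators themselves were not called: *Ppargc1a* gave −0.64 within Tg and 1.44 within WT, *Esrra* −0.34 ± 0.11 and *Esrrg* −0.23 ± 0.13. The list median was −0.14, and 0.04 with median scaling on an all-gene median of 0.17.

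The respiratory chain differed less. None of 33 measured complex I subunits was called by limma and 11 had an unadjusted p below 0.05. Of the 33, 31 had a negative difference and 20 were lower in rep1 hearts without overlap, beside 53.2% and 23.9% of all genes tested. Their median was −0.21, the range was −0.42 to 0.02, and with median scaling the median was −0.08 on an all-gene median of 0.17. *Ndufv1*, the flavoprotein that takes electrons from NADH, read 14.01 (Tg) and 13.62 (WT) in rep1 hearts, against 14.23 (Tg) and 14.07 (WT) in rep2 hearts, a difference of −0.34 ± 0.11 (adjusted p = 0.118). For complexes II to V, 2 of 36 subunits were called lower, *Sdhc* (−0.53 ± 0.10) and *Atp5a1* (−0.48 ± 0.11), with a median of −0.11. In the citrate cycle 1 of 16 was called, *Idh3a* of isocitrate dehydrogenase at −0.58 ± 0.13, and 15 of 16 differences were negative, with a median of −0.25.

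Glucose use had no common direction. Of 19 measured genes 2 were called higher, the phosphofructokinase *Pfkp* and *Pgam1*, and none lower. *Pfkp* read 10.81 (Tg) and 10.01 (WT) in rep1 hearts, against 9.87 (Tg) and 8.58 (WT) in rep2 hearts, a difference of 1.19 ± 0.16. The insulin-responsive transporter *Slc2a4* gave −0.50 ± 0.14 and the muscle enolase *Eno3* −0.41 ± 0.10, neither called. The list median was −0.11, and 0.04 with median scaling on an all-gene median of 0.17.

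Of 36 measured cell cycle genes 20 were called higher in rep1 hearts and none lower. For mitosis, 31 genes were listed, 19 were measured, 14 of these were called higher and none lower, and the median was 1.36, with 1.49 within Tg and 1.34 within WT. Of the 19, 7 were detected on both rep1 arrays and on no rep2 array and so entered through the series where they are high. Among the 8 detected on all 4 TAC arrays 6 were called, and without a filter 9 of 29 on the array were called with a median of 0.90. *Prc1*, which bundles microtubules of the central spindle, read 8.98 (Tg) and 9.14 (WT) in rep1 hearts, against 6.94 (Tg) and 6.64 (WT) in rep2 hearts. The WT Sham heart, at 8.71, was near the rep1 hearts and the Tg Sham heart, at 7.16, near the rep2 hearts. The level was 4.83-fold higher in rep1 hearts (2.27 ± 0.18, adjusted p = 0.00385). *Cdk1*, the kinase that starts mitosis, read 7.14 (Tg) and 7.81 (WT) in rep1 hearts, against 5.05 (Tg) and 5.47 (WT) in rep2 hearts, and only 1 rep2 array detected it. *Anln*, a scaffold of the cleavage furrow, differed by 1.84 ± 0.19, *Pbk*, a mitotic kinase with 1 rep2 array below detection, by 2.04 ± 0.20 and *Birc5* by 1.36. *Top2a* and *Cdca8*, detected on no rep2 array, were at least 2.82-fold and at least 2.43-fold higher in rep1 hearts.

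Replication genes followed with 6 of 17 called higher, none lower and a median of 0.70 (0.89 within Tg). Of the 13 detected on all 4 TAC arrays 5 were called. *Uhrf1*, which carries DNA methylation through S phase, read 7.72 (Tg) and 7.33 (WT) in rep1 hearts, against 5.95 (Tg) and 5.77 (WT) in rep2 hearts, a difference of 1.66 ± 0.20. The helicase subunits *Mcm5* and *Mcm6* differed by 1.06 ± 0.18 and 0.97 ± 0.17, and thymidylate synthase *Tyms* by 1.10 ± 0.21. The licensing factor *Cdt1* was called at 1.13 ± 0.22, with 1 rep2 array below detection. *Mcm3* was detected on no rep2 array, was at least 1.55-fold higher in rep1 hearts and did not pass (adjusted p = 0.0623). The WT Sham heart again read with the rep1 hearts for *Mcm6*, 7.88 beside 7.91 (Tg) and 8.05 (WT).

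**Figure D4:**
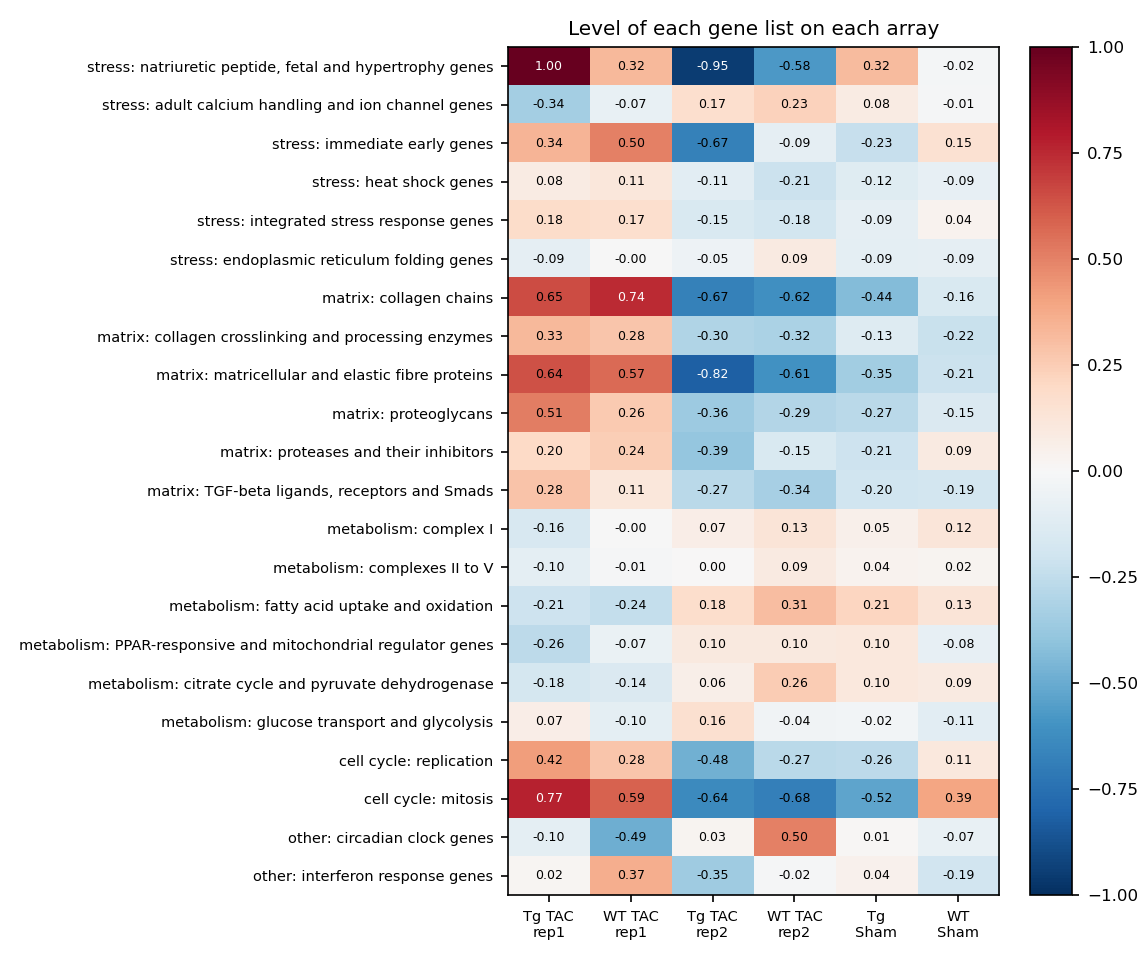
Each cell is the median over a list's measured members of log2 intensity minus each gene's mean over the 4 TAC arrays; columns are the 6 arrays. Collagens stand at 0.65 (Tg) and 0.74 (WT) in rep1 hearts, −0.67 (Tg) and −0.62 (WT) in rep2 hearts, and −0.44 (Tg) and −0.16 (WT) in shams, while mitosis in WT Sham stands at 0.39.

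The genes named next lie outside the lists and were taken as called without overlap, which fixes that both labels share a direction. *Kdm3a*, which by its brightest probe differed by 0.03 within Tg and 7.51 within WT, is not among them. *Nmrk2*, a muscle nicotinamide riboside kinase, read 12.02 (Tg) and 10.17 (WT) in rep1 hearts, against 7.25 (Tg) and 7.36 (WT) in rep2 hearts. It was 13.8-fold higher in rep1 hearts (3.79 ± 0.40, adjusted p = 0.00789), the highest called difference after *Acta1*. Of its 3 detected probes, 1 differed by −1.42. *Tnfrsf12a*, the receptor for the cytokine TWEAK, differed by 2.27 ± 0.20, *Synpo2l*, a Z-disc protein, by 2.23 ± 0.18 and *Adamtsl2*, a microfibril-associated glycoprotein, by 2.50 ± 0.17. *Tnfrsf12a* read 11.38 (Tg) and 10.93 (WT) in rep1 hearts, against 8.69 (Tg) and 9.09 (WT) in rep2 hearts, with both shams at 10.58.

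In the other direction *Ces1d*, a carboxylesterase of lipid metabolism, read 7.77 (Tg) and 10.31 (WT) in rep1 hearts, against 10.77 (Tg) and 12.67 (WT) in rep2 hearts. Tg hearts were below WT hearts in each series and rep1 below rep2 in each label, so the series difference was −2.68 ± 0.17 with little residual (adjusted p = 0.00268). *Inmt*, an N-methyltransferase, read 8.52 (Tg) and 8.84 (WT) in rep1 hearts, against 10.43 (Tg) and 11.09 (WT) in rep2 hearts, a difference of −2.08 ± 0.14. The eosinophil chemokine *Ccl11* differed by −2.50 ± 0.21, with 1 rep1 array below detection, the lectin *Lgals4* by −2.21 ± 0.15 and *Phkg1*, a subunit of phosphorylase kinase, by −2.12 ± 0.33. The positions of shams that follow are partly set by the choice of genes with a gap between the series. Of the 388 genes called higher, 284 had both rep1 hearts above both shams and 228 had both rep2 hearts below both shams, as had 22.1% and 14.9% of all genes. Of the 281 called lower, 224 had both rep1 hearts below both shams and 169 had both rep2 hearts above both, as had 18% and 20.7% of all genes. Shams lay between the series for 154 of the genes called higher and 126 of those called lower, and for 329 and 319 of all 9577 genes in these directions.

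Clock genes and neutrophil markers gave unequal values within the 2 labels, a contrast that was not tested. None of 13 measured clock genes was called by limma, 8 had an unadjusted p below 0.05, and the median was −0.15 within Tg and −0.99 within WT. *Dbp*, an output factor of the circadian clock, read 10.84 (Tg) and 8.73 (WT) in rep1 hearts, against 11.38 (Tg) and 12.16 (WT) in rep2 hearts, with shams at 11.51 (Tg Sham) and 10.56 (WT Sham). The WT rep1 heart was low and the WT rep2 heart high, while the Tg hearts were −0.54 apart (difference −1.98 ± 0.58, adjusted p = 0.0982). *Ciart* gave 0.03 within Tg and −2.68 within WT, and *Per3*, with 1 rep1 array below detection, gave −0.48 within Tg and −1.55 within WT. Neutrophil markers, with 3 of 8 measured, none called and none at an unadjusted p below 0.05, had medians of −0.40 within Tg and 1.74 within WT. Interferon response genes had 3 of 17 called higher with a median of 0.39 (0.33 within Tg), 8 with median scaling and none without the genotype term, without a filter on dim probes or with the mean of a gene's probes. The calls were the antiviral gene *Ifit2* at 0.79 ± 0.17, *Oasl2* at 0.63 ± 0.14 and *Ifitm3* at 0.60. Over all genes, median scaling raised the calls of higher from 388 to 808.

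**Figure D5:**
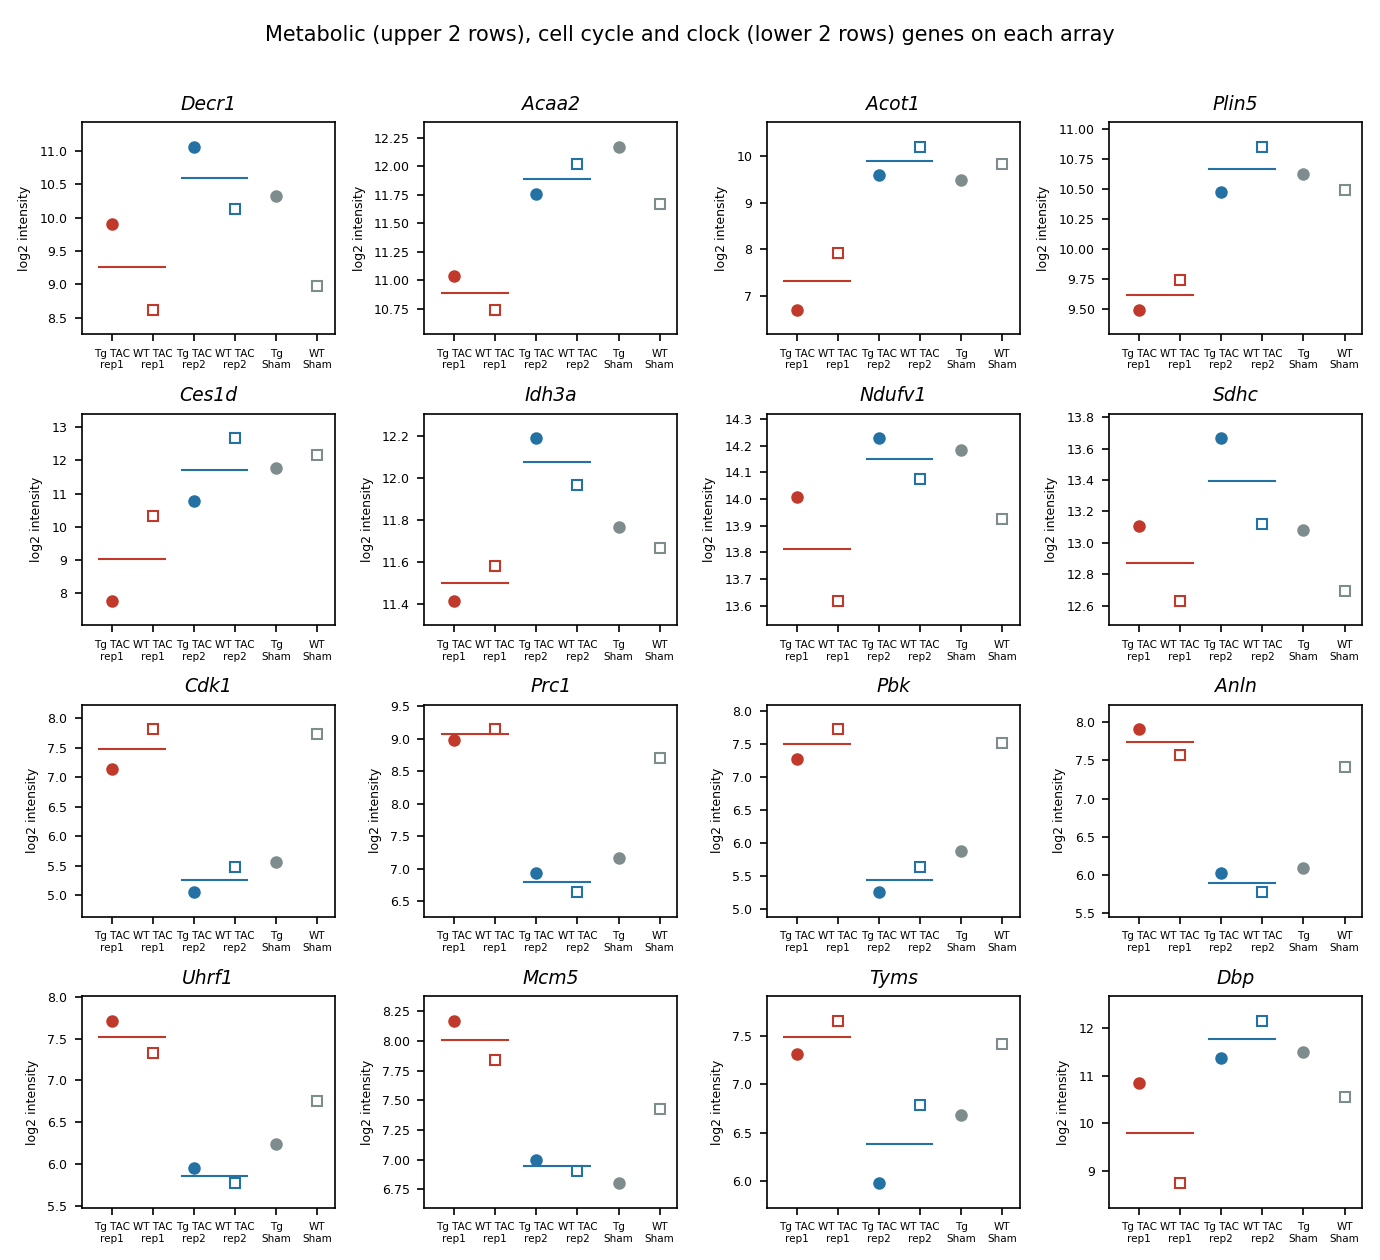
Log2 intensity of 16 genes on each of the 6 arrays, with symbols as in the plot of stress and matrix genes. Fatty acid genes of the top row have both red points below both blue points; mitotic genes have both red points above both blue points with the WT Sham point near the red; *Dbp* differs by −3.43 within WT and by −0.54 within Tg.

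The comparison of genotype labels among the same 4 arrays had 1 of its 2 WT TAC libraries, rep1, high for *Kdm3a* like the Tg TAC libraries, so its counts are those of the labels as given. With the replicate number left out of the model, Tg TAC against WT TAC gave no call by limma in 9577 genes and 696 genes at an unadjusted p below 0.05. With the number as a replicate block 7 genes were called, 3 higher and 4 lower in Tg TAC.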

How the data were processed

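RNA from the left ventricle of 6 mice was labelled with biotin after amplification and read on Illumina bead arrays, a mouse per array. Per probe, the authors deposited the linear intensity without normalization (the submitters' processing notes name GenomeStudio 2011.1). Beside it the authors deposited a detection p-value for every probe and array. Their quantile-normalized intensity table was an alternative only. The number of arrays limits the precision.

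The intensities were corrected by normexp, with the background level inferred from detection p-values, raised by 16, quantile normalized over 6 arrays and taken to log2, in limma 3.58.1 (R 4.3.3). A single gene symbol was available for 34885 of 45281 probes, several for 18 and none for 10378. Keeping probes detected (p below 0.01) on 2 or more arrays left 17014, and taking the brightest for each gene left 9577 named genes. The 4 TAC arrays were fitted with replicate series and genotype label as terms (lmFit, eBayes with intensity trend), and p-values were adjusted by Benjamini-Hochberg over all genes at 0.05. For a single value an exact test over 2 pairs cannot go below 0.5, or 0.33 for 2 against 2, so none was run. A fold given as "at least" divides the mean of the series that detected a gene by a floor for the other series, where each array counts at its own reading of that gene or at its dimmest detected probe, whichever is brighter.

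The members and the 22 gene lists were chosen with earlier results of these data known. Named genes were the 15 largest called differences each way without overlap, up to 6 members of each list, genes the study names, and those whose difference was most unlike in the 2 genotypes; clones were counted only (15 of the calls). *Xirp2*, *Uchl1*, *Ryr2*, *Jund*, *Klf4*, *Klf2*, *Gadd45g*, *Col4a1*, *Col4a2*, *Serpinh1*, *Fn1*, *Fbln1*, *Thbs2*, *Mmp2*, *Cpt1b*, *Cpt2*, *Slc25a20*, *Birc5*, *Jun* and *Ifitm3* were added after their values were seen. The fits were also run on simulated data, with no outcome given here, so this lends no weight to the calls. The alternatives were the model terms, all 6 arrays, scaling, background, offset, the deposited normalized table, filters, the mean of a gene's probes, the prior without trend, the methods' t-test and leaving out each array.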

Additional observations from a re-analysis of the deposited data

Results flagged for a closer look

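In this comparison 3 genes named for unlike differences went opposite ways by more than 2-fold within the 2 genotype labels, each from 1 array against 1 array, so the contrast between labels was not tested. *S100a8*, a neutrophil calprotectin subunit, differed by −1.42 within Tg and by 2.16 within WT, a contrast of −3.59 (Tg minus WT). *Sh3gl2*, an endophilin of synaptic vesicles, differed by −2.11 within Tg and by 1.68 within WT, a contrast of −3.79. *Ttr*, the thyroid hormone carrier transthyretin, differed by −1.21 within Tg and by 2.60 within WT, a contrast of −3.81. For *S100a8* the library labelled WT TAC rep1 was the highest of the 6 at 9.20, beside 8.65 in WT Sham.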

How the results depend on the processing

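The count of genes called between TAC rep1 and TAC rep2 was 669 as reported. It was 36 without the genotype term, 42 without the intensity trend and 396 with the mean of a gene's probes. The methods' t-test called 0 after Benjamini-Hochberg adjustment and 966 at an unadjusted p below 0.05. Leaving out 1 of the 4 TAC arrays, in a fit without genotype, gave between 53 and 86 calls. The count lay between 475 and 948 with all 6 arrays, median scaling, no background correction, offset 50, the deposited normalized table, detection on all 4 TAC arrays and no filter. Median scaling turned 58% of calls higher into 85.2% (808 higher and 140 lower, against 388 and 281), with an all-gene median of 0.17 against −0.03. Under it *Hspa5* gave 0.0063 and *Sh3gl2* 0.012, both reversed and neither called. Of 97 called genes named, 23 stayed called without the genotype term and 26 without the intensity trend. The cause of these shifts was not tested. TAC mice of the same replicate number also have adjacent animal numbers, but no source says that the number marks a litter, batch or day. With 2 pairs, the deviations of same-numbered arrays correlated at 0.54 across genes. This is the Pearson r of the Tg and WT differences again and not a second observation. The replicate block gave 7 calls between Tg TAC and WT TAC against none without it. Of 62 named genes with several detected probes, 58 had all probes of 1 sign. Genes detected in only 1 series have a bound there.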
